A study of Arabidopsis thaliana with 12 samples.

Results

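Cuticular wax and fatty acid elongation was followed through 10 genes of Arabidopsis thaliana, chosen by locus: KCS1 (AT1G01120), KCS6, also called CER6 (AT1G68530), FDH (AT2G26250), KCR1 (AT1G67730), CER10 (AT3G55360), LACS1 (AT2G47240), CER1 (AT1G02205), CER3 (AT5G57800), CER4 (AT4G33790) and LTP1 (AT2G38540). These genes, and the lists of other genes used below, were chosen with earlier results of these data known. All 10 genes were found among the 21266 loci of the authors' table, and all 10 were among the 19152 genes tested. Transcripts were measured on one-colour arrays in the third leaf and the fourth leaf, sampled from gvs1-1 at DAE28, Col at DAE28, gvs1-1 at DAE14 and Col at DAE14, with 3 independent samples per group and 1 array per sample. Col is the wild-type ecotype and gvs1-1 the other genotype of the study, whose series title names leaf senescence. The locus and the kind of lesion of gvs1-1, and what DAE stands for, are not given in the sources used here, and the labels name no agent or other allele. All plants grew on soil, for 23 and 37 days per the labels, under 16 h light and 8 h dark, and were harvested 5 h after light-on.

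The plant cuticle covers the epidermis with a cutin polyester and with waxes made from very-long-chain fatty acids. Fatty acids made in the plastid are activated to coenzyme A esters and lengthened at the endoplasmic reticulum by an elongase that repeats a cycle of condensation, reduction, dehydration and a further reduction. The long acyl chains then pass either into a decarbonylation branch that gives aldehydes and alkanes or into a reduction branch that gives primary alcohols, and the products are exported to the surface. Of the 10 genes, KCS1, KCS6 and FDH encode condensing enzymes, KCR1 the first reductase and CER10 the last reductase of the cycle; LACS1 encodes a long-chain acyl-CoA synthetase, CER1 and CER3 act in alkane formation, CER4 is an alcohol-forming reductase, and LTP1 encodes an abundant extracellular lipid transfer protein of the epidermis.

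Values are log2 processed signals relative to the 75th percentile of the array, so 0 means the level of that percentile, and levels of different genes are not compared because each comes from its own probe. Differences are the log2 value at DAE28 minus DAE14 (age) or in gvs1-1 minus Col (genotype), with the SE of the limma fit over all 12 arrays. The threshold for passing was an adjusted p of 0.05 (Benjamini-Hochberg, over the 19152 genes). The 75th percentile of the processed signal was 1169 to 1567 at DAE28 and 700.0 to 891 at DAE14, 63.8% to 72.5% of spots per array were well above background, and the number of arrays limits the precision. Slides were not balanced over the groups. Slide 1 held the 3 Col DAE14 arrays and Col DAE28 replicate 1. Slide 2 held Col DAE28 replicates 2 and 3 with gvs1-1 DAE14 replicates 1 and 2. Slide 3 held gvs1-1 DAE14 replicate 3 with the 3 gvs1-1 DAE28 arrays. Slide 2 was scanned on another day than slides 1 and 3. No slide held both genotypes at the same stage. Genotype differences with slide as a block therefore rest only on indirect links between slides.

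With age, 9 of the 10 genes passed as lower in gvs1-1 and 9 of 10 passed as lower in Col. LACS1 passed as higher in Col and did not pass in gvs1-1. Among all genes tested, 61.4% passed in gvs1-1, 30% as lower, and 72% passed in Col, 36.3% as lower and 35.7% as higher. The stages did not overlap for 68.8% of all genes in gvs1-1 and 75.5% in Col. Because the 10 genes were chosen with earlier results of these data known, these shares are given as description and not as a test. The median age difference of the 10 genes was -1.34 in gvs1-1 and -2.003 in Col, against 0.06 and 0.01 over all genes, and neither median of the 10 genes moved when CER4 was set at its bound (described with that gene). The values of every array are drawn in the plot of the 10 genes by group. In bulk leaf RNA, fewer cells of a type and less RNA per cell cannot be told apart.

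**Figure D1:**
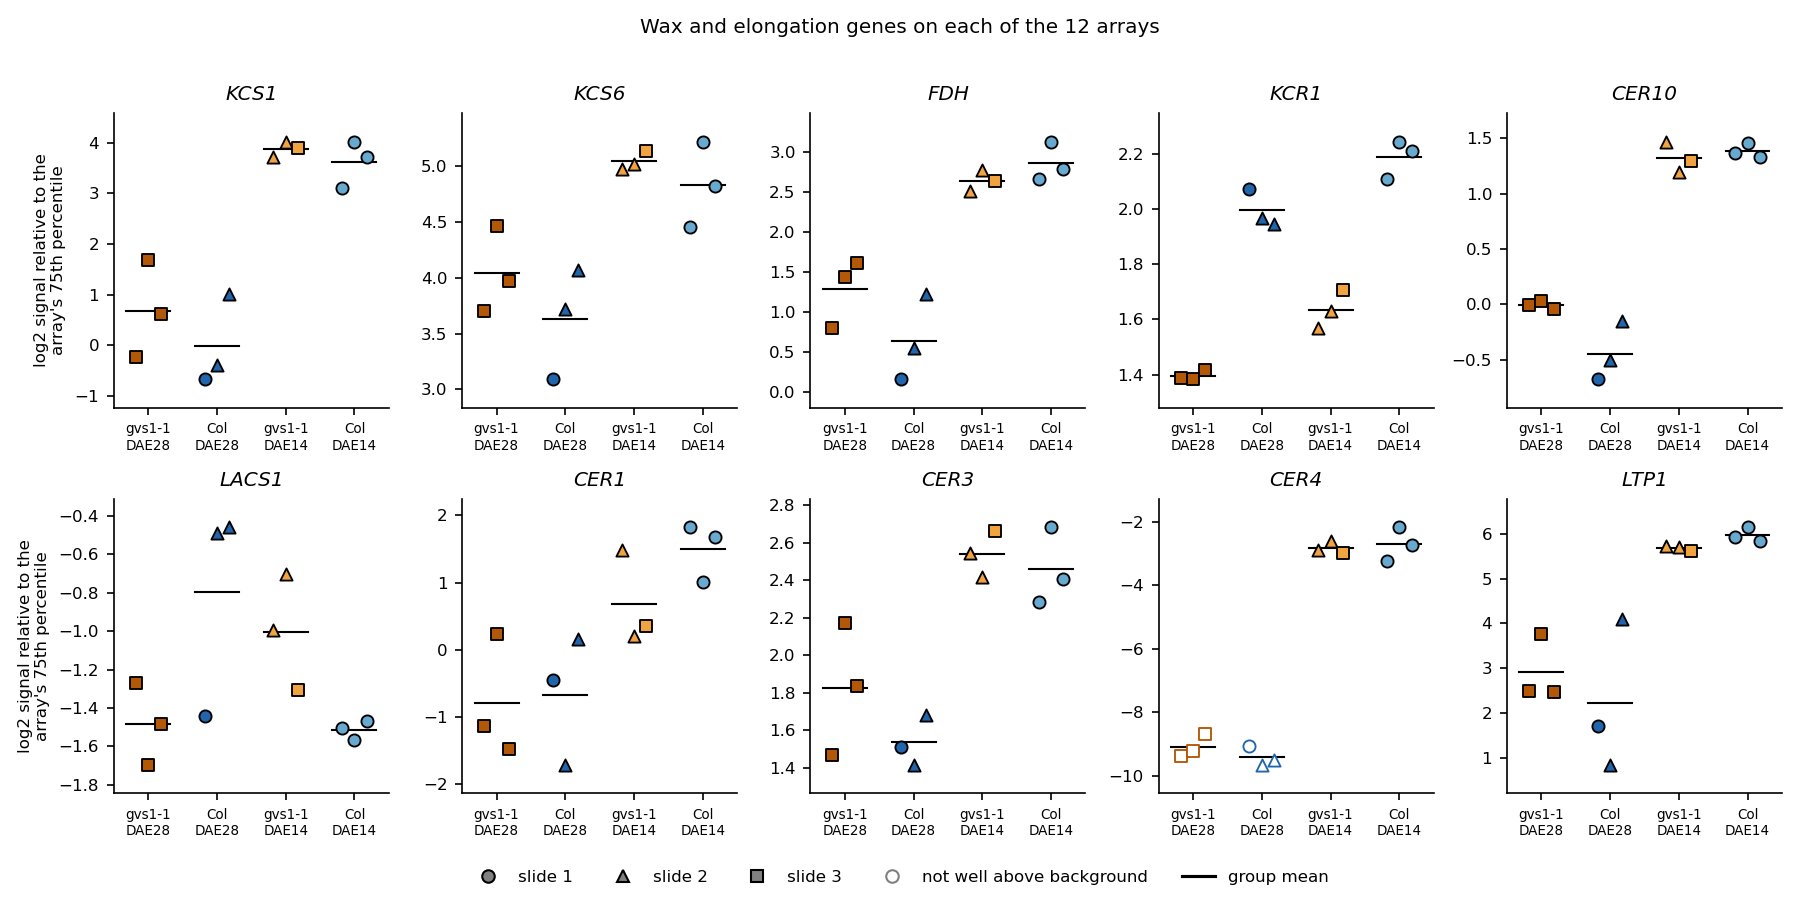
Log2 signal relative to the array's 75th percentile (vertical axis, own scale per gene) for the 10 genes in gvs1-1 DAE28, Col DAE28, gvs1-1 DAE14 and Col DAE14. Each point is 1 array, its shape gives the slide, open points are not well above background, and bars are group means of 3 arrays. Most genes lie lower at DAE28, KCR1 lies lower in gvs1-1 at both stages, and LACS1 is highest on slide 2.

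The condensing enzymes set the chain length of each elongation round, and KCS1 had the largest age difference of the 3 measured here. KCS1 gave -0.24, 1.68 and 0.62 in gvs1-1 at DAE28 and 3.72, 4.01 and 3.89 in gvs1-1 at DAE14. In Col it gave -0.67, -0.39 and 1.02 at DAE28 and 3.11, 4.02 and 3.72 at DAE14. The stages did not overlap in either genotype, while the genotypes overlapped at both stages. The age difference was -3.19 ± 0.52 in gvs1-1 (adjusted p = 0.000425) and -3.63 ± 0.52 in Col (adjusted p = 0.000105).

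KCS6, the condensing enzyme that carries most stem wax precursors in Arabidopsis, gave 3.71, 4.46 and 3.97 in gvs1-1 at DAE28 and 4.97, 5.02 and 5.14 in gvs1-1 at DAE14. In Col its values were 3.09, 3.72 and 4.07 at DAE28 and 4.45, 5.22 and 4.82 at DAE14. Both genotypes were lower at DAE28 with no overlap of the stages, by -0.998 ± 0.277 in gvs1-1 (adjusted p = 0.0101) and -1.203 ± 0.277 in Col (adjusted p = 0.00276). The gvs1-1 call was not kept with quantile normalization (-0.57, adjusted p = 0.0985) or with scan day as a block (-0.78, adjusted p = 0.0797). All 6 kept KCS6 probes fell in Col, by -1.995 to -1.203, and 5 of the 6 passed in gvs1-1, with differences of -0.998 to -0.705. The brightest probe, which stands for the gene, had the smallest of the 6 differences in Col and the largest in gvs1-1.

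FDH, whose loss lets Arabidopsis organs fuse through their epidermis, gave 0.80, 1.43 and 1.62 in gvs1-1 at DAE28 against 0.16, 0.54 and 1.22 in Col at DAE28. At DAE14 its values were 2.52, 2.78 and 2.64 in gvs1-1 and 2.66, 3.13 and 2.79 in Col. Every DAE28 array lay under every DAE14 array, and the genotypes overlapped at both stages. The fall with age was -1.36 ± 0.28 in gvs1-1 (adjusted p = 0.00182) and -2.22 ± 0.28 in Col (adjusted p = 4.31e-05).

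CER10, the enoyl-CoA reductase of the last step, gave -0.01, 0.03 and -0.05 in gvs1-1 at DAE28 and -0.68, -0.51 and -0.15 in Col at DAE28. Its DAE14 values were 1.47, 1.20 and 1.30 in gvs1-1 and 1.36, 1.46 and 1.33 in Col. The stages lay far apart in both genotypes, and the age difference was -1.33 ± 0.13 in gvs1-1 (adjusted p = 1.96e-05) and -1.83 ± 0.13 in Col (adjusted p = 9.51e-07). The genotypes overlapped at DAE14, whereas at DAE28 all gvs1-1 arrays lay above all Col arrays.

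KCR1, the 3-ketoacyl-CoA reductase of the second step, differed mainly between genotypes. It gave 1.39, 1.38 and 1.42 in gvs1-1 at DAE28 against 2.07, 1.97 and 1.95 in Col at DAE28. At DAE14 it gave 1.57, 1.63 and 1.71 in gvs1-1 against 2.11, 2.24 and 2.21 in Col. The 4 groups did not overlap at all, and ran from Col DAE14 down through Col DAE28 and gvs1-1 DAE14 to gvs1-1 DAE28. Its age difference was small, -0.24 ± 0.08 in gvs1-1 (adjusted p = 0.0239) and -0.19 ± 0.08 in Col, where the adjusted p of 0.04996 lay on the threshold and was not kept in 10 of the 12 fits that left out 1 array. With each array centred on its median the Col value was -0.02 (adjusted p = 0.845). In gvs1-1 the call was not kept without gvs1-1 DAE14 replicate 2 or 3 or gvs1-1 DAE28 replicate 1 or 2, with -0.24 to -0.20, nor with quantile normalization (-0.17, adjusted p = 0.109), median centring (-0.21, adjusted p = 0.0558) or normexp background correction (-0.28, adjusted p = 0.145). In the authors' deposited log2 table the gvs1-1 difference was -0.24 (adjusted p = 0.107).

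LACS1, which activates long-chain fatty acids for wax and cutin, was the only one of the 10 genes to pass as higher with age, and only in Col. It gave -1.27, -1.70 and -1.48 in gvs1-1 at DAE28 and -1.44, -0.49 and -0.46 in Col at DAE28. At DAE14 it gave -0.99, -0.70 and -1.31 in gvs1-1 and -1.50, -1.57 and -1.47 in Col. The age difference was -0.48 ± 0.25 in gvs1-1 (adjusted p = 0.124) and 0.72 ± 0.25 in Col (adjusted p = 0.0262). The 4 highest values, from -0.99 to -0.46, were those of the 4 arrays of slide 2, and the other 8 arrays lay between -1.70 and -1.27. With slide as a block the Col difference was 0.07 (adjusted p = 0.734), with scan day as a block 0.24 (adjusted p = 0.247), and on slide 1 alone 0.07. It also missed the threshold without any 1 of the Col DAE14 arrays or without Col DAE28 replicate 2 or 3, at 0.55 to 0.74. The other kept LACS1 probe differed by 0.66 in Col and -0.37 in gvs1-1.

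**Figure D2:**
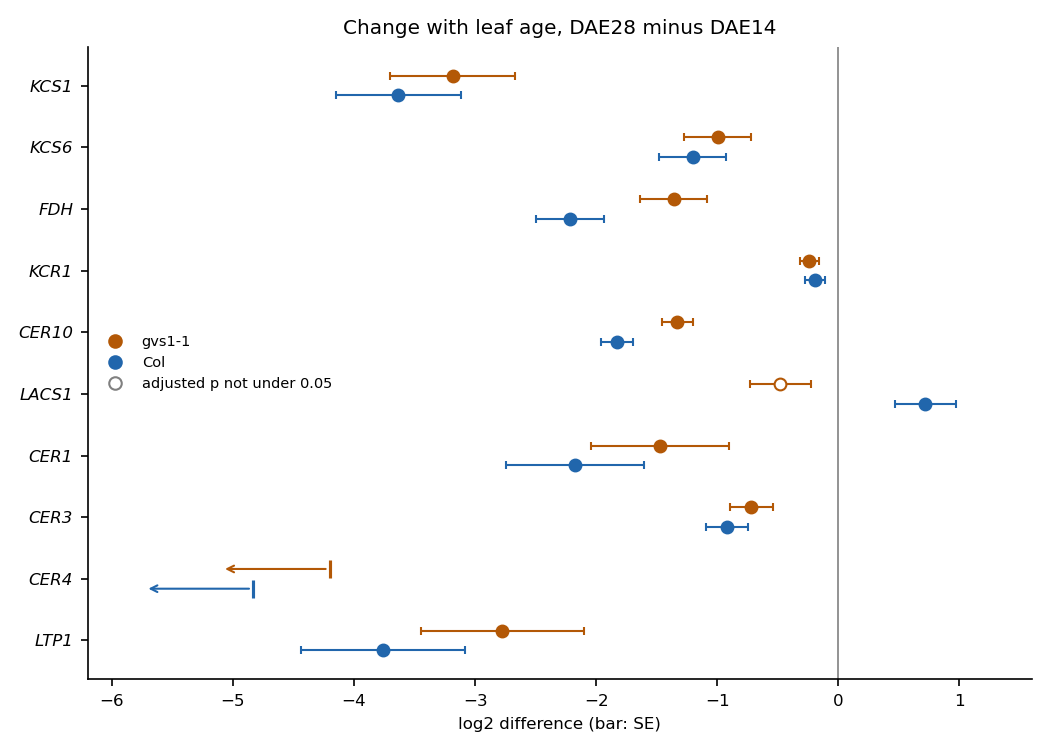
Log2 difference between DAE28 and DAE14 in gvs1-1 (upper point of each pair) and Col (lower point) for the 10 genes, with 1 SE as the bar. Filled points passed at an adjusted p under 0.05; CER4 is drawn at its bound with an arrow, since it was not well above background at DAE28. All points except LACS1 in Col lie below 0.

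In the alkane branch, CER1 and CER3 both fell with age. CER3, which works with CER1 in making alkanes, gave 1.47, 2.17 and 1.84 in gvs1-1 at DAE28 and 2.54, 2.42 and 2.66 in gvs1-1 at DAE14. In Col it gave 1.51, 1.42 and 1.68 at DAE28 and 2.29, 2.68 and 2.40 at DAE14. The stages did not overlap, and the difference was -0.72 ± 0.18 in gvs1-1 (adjusted p = 0.00508) and -0.92 ± 0.18 in Col (adjusted p = 0.000809).

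CER1 varied more between samples of 1 group than CER3 did, with group SDs of 0.44 to 0.95 against 0.12 to 0.35. It gave -1.13, 0.23 and -1.47 in gvs1-1 at DAE28 and 1.49, 0.20 and 0.36 in gvs1-1 at DAE14, so the stages overlapped there. In Col it gave -0.46, -1.71 and 0.15 at DAE28 and 1.83, 1.01 and 1.68 at DAE14, with no overlap. The difference was -1.47 ± 0.57 in gvs1-1 (adjusted p = 0.0441) and -2.18 ± 0.57 in Col (adjusted p = 0.00573). The gvs1-1 call was kept in 4 of the 12 fits that left out 1 array, those without Col DAE28 replicate 2 or 3, gvs1-1 DAE14 replicate 2 or gvs1-1 DAE28 replicate 2, and its value ran from -1.98 to -1.07 over the 12. With slide as a block it was -1.15 in gvs1-1 (adjusted p = 0.315) and -1.96 in Col (adjusted p = 0.084). In the authors' deposited log2 table the CER1 difference was -0.74 in gvs1-1 (adjusted p = 0.0577) and -1.02 in Col (adjusted p = 0.0113).

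CER4, which makes the primary alcohols of the reduction branch, was well above background on all 6 DAE14 arrays and on none of the 6 DAE28 arrays. At DAE14 it gave -2.90, -2.61 and -2.99 in gvs1-1 and -3.24, -2.17 and -2.73 in Col, which overlap. At DAE28 only a bound can be given, the DAE14 mean against the mean over the DAE28 arrays of the higher of the gene's own signal and the lowest signal well above background. By this definition CER4 was at least 18.4-fold lower at DAE28 in gvs1-1 and at least 28.5-fold lower in Col. A signal not well above background can exceed the lowest one that is, so these are not strict limits. The adjusted p, 3.8e-07 in gvs1-1 and 8.39e-08 in Col, tests the measured difference and not the bound. These bounds hold for the background-corrected processed signal. In the authors' deposited log2 table the differences were smaller, -2.10 in gvs1-1 and -2.04 in Col, and with normexp background correction, which pulls dim values together, they were -2.14 in gvs1-1 (adjusted p = 0.0134) and -1.48 in Col (adjusted p = 0.0536). Both genotypes were not well above background at DAE28, so no genotype difference is given there.

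LTP1, at the export end of the pathway, fell with age in both genotypes. It gave 2.49, 3.78 and 2.47 in gvs1-1 at DAE28 against 1.71, 0.84 and 4.09 in Col at DAE28. At DAE14 it gave 5.73, 5.72 and 5.61 in gvs1-1 against 5.92, 6.15 and 5.85 in Col. The DAE14 arrays of each genotype lay close together, while the Col DAE28 arrays spread over 3 log2 units with an SD of 1.68. The age difference was -2.77 ± 0.68 in gvs1-1 (adjusted p = 0.00499) and -3.76 ± 0.68 in Col (adjusted p = 0.000554), and without Col DAE28 replicate 3 the Col value was -4.70. With slide as a block the gvs1-1 value was -2.70 (adjusted p = 0.0666). All 4 LTP1 probes passed as lower in both genotypes, by -3.21 to -2.77 in gvs1-1 and -4.06 to -3.76 in Col.

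Col DAE28 replicate 3 was the highest Col DAE28 array for 8 of the 10 genes, all but KCR1 and CER4, and gvs1-1 DAE28 replicate 2 was the highest of its group for 6 of the 10. Among the Col DAE14 arrays, replicate 2 was the highest for 8 of the 10. Within these groups several of the genes were thus highest on the same array. How often these arrays were highest over all genes was not counted, and a shift of the whole array was not tested. Probes of KCS6, CER1 and LTP1 may also bind transcripts of close relatives (KCS5, CER1-LIKE1 and LTP2), and the part of these in the signal was not tested.

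Between genotypes at DAE14, 1 of the 10 genes passed, where 0.313% of all genes did, 0.266% as lower. KCR1 was lower in gvs1-1 by -0.55 ± 0.08 (adjusted p = 0.0331), or 0.681-fold of Col, and all 3 gvs1-1 arrays lay under all 3 Col arrays. The call was kept in 4 of the 12 fits that left out 1 array, those without Col DAE28 replicate 1 or 3, gvs1-1 DAE14 replicate 3 or gvs1-1 DAE28 replicate 3; the value stayed between -0.59 and -0.52 over the 12, with adjusted p-values of 0.0178 to 0.158. With slide as a block it was -0.47 (adjusted p = 0.255), and with scan day as a block -0.48 (adjusted p = 0.223). The other 9 genes ranged from -0.82 for CER1 to 0.51 for LACS1 with adjusted p-values of 0.345 to 0.874. LTP1 did not overlap between the genotypes at DAE14 but differed by -0.29 ± 0.68, and LACS1 did not overlap either. Groups did not overlap for 27.8% of all genes in that comparison.

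**Figure D3:**
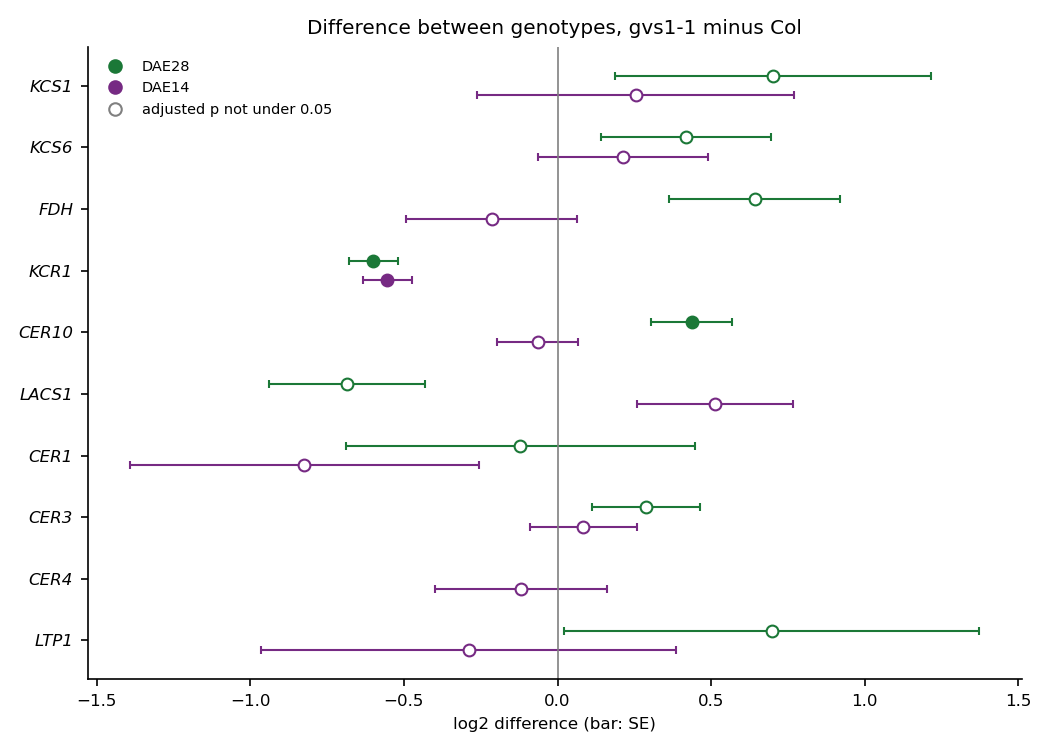
Log2 difference between gvs1-1 and Col at DAE28 (upper point of each pair) and DAE14 (lower point), with 1 SE as the bar. Filled points passed at an adjusted p under 0.05; CER4 has no DAE28 point because its signal was near background there in both genotypes. KCR1 lies below 0 at both stages by nearly the same amount, and CER10 passed above 0 at DAE28.

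Between genotypes at DAE28, 1 of the 10 genes passed as higher in gvs1-1 and 1 as lower, with 17.9% and 15.2% of all genes in those directions and 33.1% in either; the genotypes did not overlap for 45.7% of all genes. KCR1 was lower by -0.60 ± 0.08 (adjusted p = 0.000732), or 0.66-fold of Col, and passed in all 12 fits that left out 1 array, with slide as a block (-0.67, adjusted p = 0.0276) and with the deposited log2 table (-0.53, adjusted p = 0.00643). CER10 was higher by 0.44 ± 0.13 (adjusted p = 0.0282), or 1.35-fold. That call was not kept without Col DAE28 replicate 1 or 2 or without any 1 of the gvs1-1 DAE28 arrays, at 0.32 to 0.46, nor with slide as a block (0.36, adjusted p = 0.303), median centring (0.36, adjusted p = 0.0585) or normexp background correction (0.36, adjusted p = 0.0966).

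The other genes measured at DAE28 did not pass between genotypes, and their 95% intervals were wide. LACS1 differed by -0.69 (interval -1.25 to -0.12, adjusted p = 0.0615). It passed without Col DAE28 replicate 1 (-1.01, adjusted p = 0.00326), with median centring (-0.76, adjusted p = 0.0468) and with the deposited log2 table (-0.63, adjusted p = 0.0483), and on scan day 1 alone, which leaves out slide 2, it differed by -0.04. FDH differed by 0.64 (interval 0.02 to 1.26, adjusted p = 0.102), and passed without Col DAE28 replicate 3 (0.93, adjusted p = 0.0198) or without gvs1-1 DAE28 replicate 1 (0.88, adjusted p = 0.0425). LTP1 differed by 0.70 (interval -0.81 to 2.20) and passed without Col DAE28 replicate 3 (1.63, adjusted p = 0.0124). KCS1 differed by 0.70 (interval -0.44 to 1.85), KCS6 by 0.42 (interval -0.20 to 1.04), CER3 by 0.29 (interval -0.10 to 0.68) and CER1 by -0.12 (interval -1.38 to 1.14). Leaving out Col DAE28 replicate 3 raised the count of genes that passed to 4, which were KCR1, CER10, FDH and LTP1.

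The interaction asks whether the age change differed between genotypes, as the change in gvs1-1 minus the change in Col. LACS1 alone passed, 1 of 10 genes, where 18.7% of all genes passed, 8.75% with a negative interaction. Its interaction was -1.198 ± 0.358 (adjusted p = 0.0438), and it was kept in 2 of the 12 fits that left out 1 array, those without Col DAE28 replicate 1 or gvs1-1 DAE14 replicate 3, which are the arrays of those groups that were not on slide 2. With slide or with scan day as a block it was -0.25 (adjusted p = 0.612 and 0.677). For the 9 genes measured at both stages in both genotypes the sign was positive, meaning a smaller fall in gvs1-1 than in Col, in 7, none of which passed, and negative for KCR1 and LACS1; KCR1 was positive with normexp background correction (0.07) and with the deposited log2 table (0.05).

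KCR1 had the narrowest interval of the interaction, -0.05 with a 95% interval of -0.30 to 0.20. CER10 gave 0.50 (interval 0.09 to 0.91, adjusted p = 0.0842) and FDH 0.86 (interval -0.02 to 1.73, adjusted p = 0.15). Without Col DAE28 replicate 3 the count was 3, with CER10 at 0.65 (adjusted p = 0.0178), FDH at 1.15 (adjusted p = 0.0431) and LTP1 at 1.92 (adjusted p = 0.0343) passing and LACS1 at -1.03 (adjusted p = 0.082) not passing. In the authors' deposited log2 table, refitted in the same way, FDH (0.95, adjusted p = 0.0476), CER10 (0.80, adjusted p = 0.0101) and LACS1 (-1.09, adjusted p = 0.0328) passed.

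All kept probes of a gene had the same direction of the age change. The second CER10 probe had an interaction of 1.295 (adjusted p = 0.028 over all kept probes) against 0.50 at the brighter probe, and the second FDH probe 1.17 (adjusted p = 0.0274) against 0.86. At DAE14 these second probes were lower in gvs1-1, by -0.68 for CER10 (adjusted p = 0.194) and -0.69 for FDH (adjusted p = 0.162), where the brighter probes gave -0.07 and -0.21. KCS6 probes ranged from 0.21 to 1.29 in the interaction and none of the 6 passed. LTP1 probes ranged from 0.69 to 0.99 and none of the 4 passed.

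**Figure D4:**
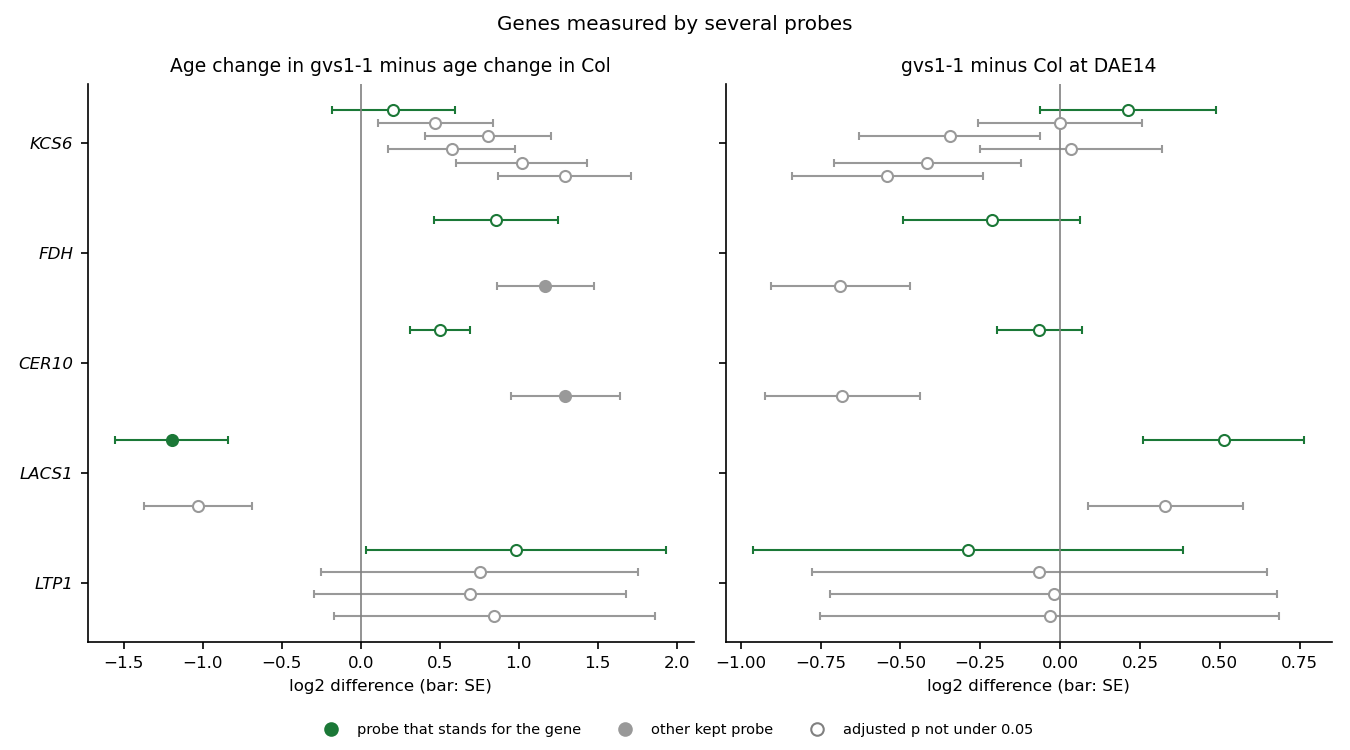
Log2 differences of each kept probe for the 5 genes with several kept probes, with 1 SE as the bar. The left panel shows the interaction and the right panel gvs1-1 minus Col at DAE14; green marks the probe that stands for the gene and filled points passed. The second probes of FDH and CER10 lie further from 0 than the first in both panels.

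Genes whose array values were most like those of each of the 10 genes were found among 8495 other tested genes with a symbol, by the root mean square (RMS) difference of values centred on the gene's own mean over the 12 arrays. FDH lay closest to ABCG12 (RMS 0.174 log2 units) and KCS5 (0.178), which compares with an own RMS of 0.974. KCS1 lay closest to HCA2 (0.352) and CER2 (0.362) with an own RMS of 1.82, and LTP1 to LTPG1 (0.456) and HCA2 (0.460) with an own RMS of 1.82. CER10 lay closest to PIP1C (0.110) and RABE1b (0.111), CER3 to AAP6 (0.127) and SRF7 (0.141), and KCR1 to PERK1 (0.125) and ZDS (0.145). KCS6 lay closest to TMKL1 (0.206) and SUC2 (0.223), LACS1 to VDAC2 (0.198) and HOS10 (0.207), CER1 to EXPB3 (0.490) and FDM4 (0.504), and CER4 to GH3.9 (0.284) and RXF12 (0.410). The CER4 likeness includes the DAE28 arrays, where CER4 was not well above background. Within the 10 genes, FDH and CER10 were nearest to each other (0.285), as were KCS6 and CER3 (0.255), KCS1 and LTP1 (0.4997) and KCR1 and LACS1 (0.515). The value for KCR1 and LACS1 exceeds the own RMS of KCR1 (0.312) and of LACS1 (0.413), so their patterns were not alike.

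The other genes of the pathway were described from 6 lists, of which 71 of 86 entries were tested. Among other elongation genes, 19 of 24 were tested, 12 passed as lower with age in gvs1-1 and 12 in Col, none passed as higher, and the median difference was -1.28 in gvs1-1 and -1.94 in Col. CER2, a partner of the condensing enzymes for the longest chains, differed by -3.56 in gvs1-1 and -3.62 in Col, and its homologue CER26-LIKE by -2.93 and -3.32 in the same order. KCS12 differed by -2.41 in gvs1-1 and -3.34 in Col, KCS19 by -3.38 in gvs1-1, where 2 of its 3 DAE28 arrays were well above background, and CER26 by -2.68 in Col. At DAE28, 4 of the 19 passed as higher in gvs1-1 than in Col, KCS8 (2.83), KCS12 (1.67), CER26 (1.16) and KCS11 (0.62), and none as lower, where 17.9% of all genes passed as higher. With slide as a block none of these 4 passed (adjusted p = 0.117 to 0.492).

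Among other genes of wax synthesis and export, 12 of 17 were tested, 6 passed as lower and 0 as higher in gvs1-1, and 7 as lower and 1 as higher in Col. The lipid transfer proteins with a membrane anchor, LTPG2 and LTPG1, differed by -4.29 and -3.56 in gvs1-1 and by -4.36 and -3.29 in Col. LACS2, an acyl-CoA synthetase of cutin synthesis, differed by -3.28 in gvs1-1 and -4.61 in Col, and the wax exporter ABCG12 by -1.33 in gvs1-1. FAR5, a fatty acyl reductase like CER4, was near background in Col at DAE14. In Col at DAE28 it was higher by at least 2.93-fold (adjusted p = 0.0206 for the measured difference). That bound holds for the processed signal: the FAR5 difference was 0.72 at its lowest over the scalings, the call was not kept with slide as a block (adjusted p = 0.133), and 0 genes of the list passed as higher in Col with normexp background correction. At DAE28, CER1-LIKE1 (0.92) and ABCG12 (0.82) passed as higher in gvs1-1, and CER1-LIKE1 had the other sign with normexp background correction.

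Of the 5 other LTP genes, all tested, 2 passed as lower and 0 as higher in gvs1-1, and 1 as lower and 3 as higher in Col. In Col, LTP3 differed by 4.99, LTP2, which neighbours LTP1, by 1.11 (adjusted p = 0.0389), and LTP5 by -2.93. LTP4 was at least 2.59-fold higher in Col in the processed signal, and its log2 difference was 1.14 at its lowest over the scalings. The adjusted p of its measured difference, 0.04996, lay on the threshold. LTP2 passed in 6 and LTP4 in 3 of the 12 fits that left out 1 array, and with slide as a block neither passed (adjusted p = 0.394 for LTP2 and 0.167 for LTP4). In gvs1-1, LTP6, well above background on 2 of 3 DAE28 arrays, differed by -1.98 (adjusted p = 0.159 with slide as a block), and LTP5 by -1.60. LTP5 passed as higher in gvs1-1 than in Col at DAE28 (1.45, adjusted p = 0.0137).

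Cutin genes fell with age in 7 of the 9 tested, of 12 listed, in gvs1-1 and in 7 of 9 in Col, with medians of -1.98 and -2.90 in the same order. GPAT8, an acyltransferase of cutin monomers, differed by -5.14 in gvs1-1 and -6.64 in Col, and BDG1, a protein needed for cuticle formation, by -4.10 and -4.56. HTH differed by -2.90 in gvs1-1 and -3.19 in Col and the fatty acid hydroxylase CYP86A2 by -2.17 and -3.08. CYP86A8 alone passed between genotypes at DAE28 (0.81).

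Cuticle regulators were 10 of 12 tested; 4 passed as lower and 1 as higher with age in gvs1-1, and 9 as lower and 1 as higher in Col. MYB106 was at least 3.67-fold lower in gvs1-1 in the processed signal, and its log2 difference was -0.42 at its smallest over the scalings. It also passed as lower in Col (adjusted p = 0.000659), where it was well above background on 1 of 3 arrays at DAE28 and 2 of 3 at DAE14, so no size is given. MYB16 differed by -1.14 in gvs1-1 and -2.59 in Col. MYB96 differed by -0.92 in gvs1-1. WRI4, which raises wax synthesis genes, differed by -0.91 in gvs1-1 and -1.79 in Col. MYB41 is the gene that passed as higher in both genotypes, and it was well above background on 2 of 3 gvs1-1 DAE28 arrays, 3 of 3 Col DAE28 arrays and 0 of the 6 DAE14 arrays. It was at least 1.13-fold higher in Col and has no fold in gvs1-1, where its DAE28 mean was under the floor of the DAE14 arrays and its sign turned with normexp background correction. At DAE28, 5 of 10 passed as higher in gvs1-1, where 17.9% of all genes did. They were MYB16 (1.53), WRI4 (1.21), MYB30 (1.01), SHN3 (0.85) and DEWAX (0.46). Of these 5, WRI4 alone still passed with slide as a block (adjusted p = 0.0383). SHN3 (2.06) and WRI4 (0.88) passed in the interaction, and neither did with slide as a block. SHN3 was well above background on 1 of 3 gvs1-1 DAE14 arrays and 2 of 3 Col DAE14 arrays, and had the other sign in the interaction and at DAE28 with normexp background correction.

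Plastid fatty acid synthesis, which supplies the elongase, had all 16 listed genes tested. In gvs1-1 13 passed as lower and 0 as higher, in Col 13 as lower and 1 as higher, and the medians were -1.07 in gvs1-1 and -1.16 in Col. MOD1, the enoyl-ACP reductase, differed by -2.24 in gvs1-1 and -2.78 in Col, and the condensing enzyme KAS1 by -1.73 and -2.51. BCCP2, a subunit of acetyl-CoA carboxylase, differed by -2.44 in gvs1-1. At DAE28, 4 passed as higher in gvs1-1, led by the acetyl-CoA carboxylase subunits CAC2 (0.74) and CAC3 (0.63), and 2 as lower, BCCP2 (-0.81) and FATB (-0.65). The interaction passed for FATA (0.76) and CAC3 (0.75), neither of which passed with slide as a block, and FATA had the other sign with normexp background correction. Over the 6 lists, 17 of 71 genes (23.9%) passed as higher in gvs1-1 at DAE28, against 17.9% of all genes, and 2 passed as lower. With slide as a block 3 of the 17 still passed (CAC3, FAB1 and WRI4) and 0 of the 2.

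**Figure D5:**
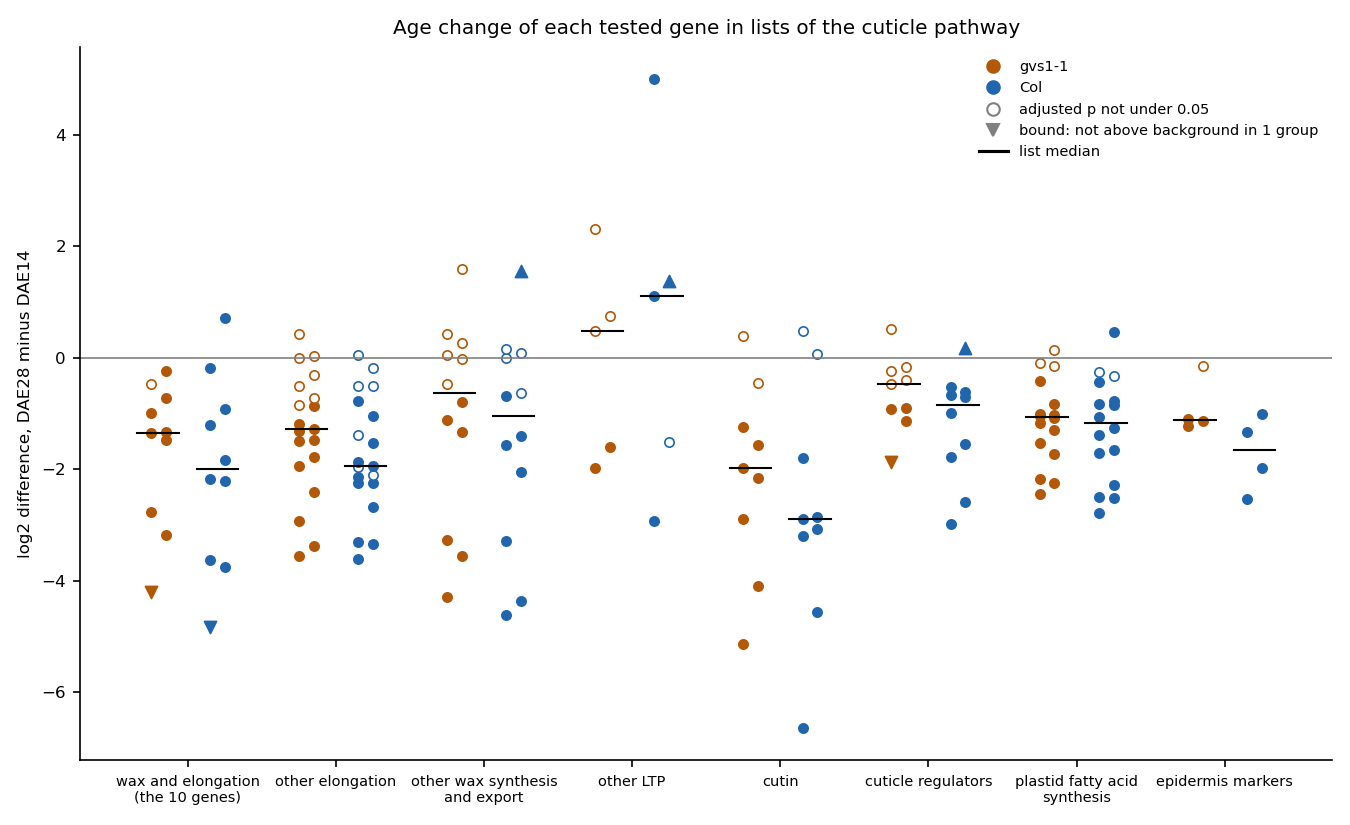
Log2 difference between DAE28 and DAE14 of each tested gene in the 10 genes, 6 further lists of the pathway and the epidermis markers, in gvs1-1 (left of each pair) and Col (right). Filled points passed, triangles are bounds for genes not well above background in 1 group, genes with no bound are left out, and lines are list medians. The LTP list alone has medians above 0.

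Epidermis markers, 4 of 5 measured, moved in the same direction as most of the 10 genes, and so did mesophyll markers. With age 3 of 4 epidermis markers passed as lower in gvs1-1 and 4 of 4 in Col, where 30% and 36.3% of all genes did. Mesophyll markers passed as lower in 3 of 3 and phloem markers in 2 of 3, in each genotype. Over the scalings RCA took the other sign, with a highest value of 0.09 in Col and 0.15 in gvs1-1. The smallest falls over the scalings were -0.33 and -0.08 for RBCS1A and -0.44 and -0.10 for CAB3, in the same order. At DAE28 ATML1 (1.08) and PDF2 (0.65), regulators of the epidermal cell layer, passed as higher in gvs1-1, where 17.9% of all genes did. With slide as a block ATML1 still passed (adjusted p = 0.028) and PDF2 did not (adjusted p = 0.0538). PDF1 (0.33) and GL2 (0.16) did not pass at DAE28. The guard cell markers KAT1 (-1.30) and SLAC1 (-0.997) and the phloem marker APL (-0.69) passed as lower there, where 15.2% of all genes did. The phloem marker SEOR1 (1.09) and the mesophyll marker RBCS1A (0.58) passed as higher. With slide as a block none of these guard cell, phloem and mesophyll markers passed (adjusted p = 0.0501 to 0.166). The summed level of the epidermis markers, in multiples of the array's 75th percentile, was 4.41 to 4.60 in gvs1-1 at DAE28 and 2.54 to 2.88 in Col at DAE28. It was 9.34 to 12.2 in gvs1-1 at DAE14 and 10.6 to 13.0 in Col at DAE14. This sum mostly restates PDF2 and ATML1. PDF1 lay at log2 values of only -6.21 to -4.92 and GL2 at -5.13 to -3.34 over the 12 arrays. GL1, a trichome regulator, was not well above background on any array. In the interaction, where 18.7% of all genes passed, ATML1 (1.39), PDF2 (0.77) and PDF1 (0.87) passed, as did the 3 mesophyll markers. The mesophyll markers were lower in gvs1-1 at DAE14. RCA passed there (-0.85, adjusted p = 0.0287, and 0.276 with slide as a block), where 0.266% of all genes passed as lower. CAB3 (-0.96) and RBCS1A (-0.56) did not pass at DAE14. PDF1, which passed in 1 of the 12 fits that left out 1 array, had the other sign with normexp background correction. The part of these markers in the results of the 10 genes was not tested. Markers of guard cells (5 of 5 measured), phloem (3 of 3) and mesophyll (3 of 3) were also present on every array; their summed levels were 2.27 to 2.33, 9.61 to 10.4 and 293 to 354 in gvs1-1 at DAE28, 3.00 to 4.22, 7.76 to 9.33 and 236 to 291 in Col at DAE28, 50.2 to 60.3, 21.4 to 22.8 and 483 to 551 in gvs1-1 at DAE14, and 56.4 to 70.3, 17.7 to 21.5 and 820 to 976 in Col at DAE14. Within the guard cell list TGG1 differed with age by -5.88 in gvs1-1 and -6.01 in Col, and the list median was -0.50 in gvs1-1 and -0.20 in Col. KAT1 passed as higher in Col (1.21), and FAMA (-0.20) and SLAC1 (-0.02) did not pass there.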

How the data were processed

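The 10 genes and all lists were chosen with earlier results of these data known. The single-array files hold spot intensities from Agilent Feature Extraction 11.5.1.1, per the file headers (11.5 per the submitters' processing notes); the processed signal is the intensity the authors' software corrected for background. The authors also deposited a table of log2 values per locus, used as an alternative; how it was scaled is not stated in them. RefSeq accessions in the files matched 34348 of 43603 probes to loci (9255 unmatched; RefSeq table of the TAIR10.1 assembly). Repeat spots were averaged, 166 probes marked as outliers were dropped, 0 spots were saturated, and log2 signals were set relative to the array's 75th percentile. Probes well above background on all 3 arrays of a group were kept (26801), and the brightest stood for its gene; the 10 genes had 23 probes, 21 kept, with 1 dim probe each of CER1 and LACS1 left out.

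The fit used limma (version 3.58.1, R 4.3.3; lmFit, eBayes; 4 group means, 12 arrays, two-sided) and was checked on simulated data. All 10 genes are named. Up to 4 called genes per list and comparison are named in order of size, and all 5 for the cuticle regulators between genotypes at DAE28. Alternatives covered scaling, background correction (normexp, offset 50, on the median signal, since the planned mean signal is absent from the files), the dim-probe filter, probe choice, slide, scan day, replicate number and each array left out; slide as a random block, the percentile over single spots and single probes were added after seeing the data. Replicate numbers were not taken as pairs: deviations of same-numbered arrays correlated by -0.27 to 0.51, with 2 of 12 over 0.1. There were 0 unused columns.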

Additional observations from a re-analysis of the deposited data

Results flagged for a closer look

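Of the 10 wax and elongation genes, LACS1 was singled out by the interaction test in limma: the change with age differed between gvs1-1 and Col by -1.198, and by -0.25 with slide or scan day as a block. Beyond it, the same test, in which 18.7% of all genes passed, picked KCS11 (1.06), SHN3 (2.06), WRI4 (0.88), CAC3 (0.75) and FATA (0.76) from the pathway lists, of which 0 of 5 passed with slide as a block, and WRI4 passed in 4 of the 12 fits that left out 1 array. From the marker lists it picked ATML1 (1.39), PDF2 (0.77), PDF1 (0.87), KAT1 (-1.22), CAB3 (1.11), RBCS1A (1.15) and RCA (1.03), of which ATML1 (adjusted p = 0.018) and RBCS1A (adjusted p = 0.0373) still passed with slide as a block, while the other 5 had adjusted p-values of 0.0536 to 0.302. Single second probes of FDH (1.17) and CER10 (1.295) also passed it, where the brighter probes of those genes did not.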

How the results depend on the processing

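For age in Col, 10 of the 10 genes passed, and 7 to 10 over the other settings; leaving out 1 array gave 8 to 10. For age in gvs1-1, 9 passed, 5 with scan day 1 by itself and 3 with slide 3 by itself, where fewer samples enter, and leaving out 1 array gave 7 to 9. For genotype at DAE14, 1 passed (KCR1), and 0 passed with median centring, normexp, no dim-probe filter, the deposited log2 table, slide as a fixed or random block, scan day as a block and scan day 1 alone; leaving out 1 array gave 0 to 1. For genotype at DAE28, 2 passed, 1 with normexp and with slide as a fixed block, and leaving out 1 array gave 1 to 4. For the interaction 1 passed, 0 with normexp, no filter, slide as a fixed or random block and scan day as a block, 2 with the mean of all kept probes and 3 with the deposited log2 table; leaving out 1 array gave 0 to 3. Scan day 1 by itself gave 1, which was CER10 in place of LACS1. No gene among the 10 that passed took the other sign under any setting run. The cause of these changes was not tested. Scan day 1 or slide 3 by itself changes both the number of arrays and the slides that enter. For LACS1, the 4 highest values are those of slide 2, which is also the whole of scan day 2, so slide and scan day cannot be told apart.

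With the replicate number as a block, 9 and 8 of the 10 genes passed for age in Col and in gvs1-1, 0 for genotype at DAE14, 2 for genotype at DAE28 (KCR1 and FDH at 0.64, adjusted p = 0.0488, in place of CER10) and 0 for the interaction. The pairing check found the best partner of an array to have its own number in 4 of 12 cases.

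The median of all genes for age in Col was 0.01, and it was 0.12 with quantile normalization, 0.18 with median centring and -0.33 with no filter. With normexp it was -0.07 for age in gvs1-1, -0.12 for genotype at DAE28 and -0.11 for the interaction, against 0.06, 0.04 and 0.07. The share of passing genes that were higher in DAE28 in Col was 49.6%, and 38.3% with no filter. For the interaction the share that was positive was 53.1%, 31.9% with median centring and 37.1% with normexp. For genotype at DAE28 it was 54.2%, 43.4% with median centring and 43.5% with normexp, and at DAE14 15%, 43.5% with quantile normalization and 38.9% with the deposited table. Signal over background limits CER4 at DAE28 to a bound.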
